A study of Mus musculus with 9 samples.

Results

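Genes of the SIX-family, which encode developmental transcription factors, and of their EYA and DACH cofactors were followed in sorted pancreatic ductal adenocarcinoma (PDAC) cells of mice with and without Yap. The 8 genes described here were listed by symbol: the SIX-family genes Six2, Six4 and Six5, all EYA genes (Eya1, Eya2, Eya3 and Eya4) and Dach1. They were found by their Ensembl identifiers among the 47643 genes of the count files, of which 14105 reached a total of 100 counts across the 9 libraries and were tested. Of the 8 genes, 6 reached that total. Six2, with 27 counts in all, and Eya4, with 10, did not, and are given as counts. Six3, Six6 and Dach2 are given beside them.

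SIX-family proteins are homeodomain transcription factors that bind DNA at sites of the MEF3 type. EYA proteins do not bind DNA themselves. They enter the nucleus with SIX-family proteins, act as their coactivators and carry a protein phosphatase domain. DACH proteins, relatives of the SKI corepressors, can join the same complexes and repress, and PAX factors often stand upstream in the network. The network is best known from the embryonic eye, ear, kidney, muscle and cranial placodes, where it keeps progenitor cells in number. It is not a lineage program of the adult exocrine pancreas.

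RNA was taken from FACS-sorted PDAC cells of tamoxifen (TAM)-treated mice. KPF mice carried Trp53 frt/+, Pdx-Flp and R26 FSF-CreER/Dual among their alleles, and gave 6 libraries of GFP+Yap+ cells, named here by mouse number (4269, 4435, 4504h, 4504s, 4515 and 4601). KPYYF mice carried the same alleles and Yap flox/flox, and gave 3 libraries of Tm+Yap− cells (4449, 4891 and 4938) from relapsed tumors. Flp, driven by Pdx1 sequences in pancreatic cells, removed the frt allele of Trp53 and lit GFP. TAM then turned on CreER, which swaps GFP for tdTomato and, in KPYYF mice, deletes Yap. Genotype, Yap state and reporter state changed together, so they cannot be told apart, and the time on TAM and the age of each mouse are not given in the sources used here. The question the comparison addresses is which genes differ between relapsed cells that lost Yap and tumor cells that kept it.

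Each library held between 8116539 and 9635514 reads on genes, so 3 counts, the most that a count of 0 allows, stood for 0.291 to 0.436 counts in 1000000 (CPM), for counting error only. All CPM values use TMM-scaled library sizes. The libraries were made from 3′ ends, and levels are compared between libraries for 1 gene, not between genes. Yap1 itself lay between 41.7 and 151 CPM in KPF libraries and between 0.711 and 7.10 CPM in KPYYF libraries. Its log2 fold change was -4.79 ± 0.72 (SE), at an adjusted p of 0.0159, in the direction the labels give. KPF libraries 4504h and 4504s share a mouse number stem and were most like each other (Pearson r = 0.858 over genes) among the KPF libraries. They were counted as separate libraries because the labels list them as separate samples. Their counts differed by a chi-square of 102 per gene, where counting error alone would give about 1 and pairs within a group ran from 76.4 to 223. Nothing in the labels says whether they are separate animals, so for this pair the spread between libraries may not be a spread between animals. Xist, transcribed from the inactive X chromosome, had 3452 to 16108 counts in the KPYYF libraries and 5878 to 10933 in KPF libraries 4435, 4504h and 4504s, but 71 to 159 in KPF libraries 4269, 4515 and 4601. Sex is not labelled.

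Six4 was the 1 gene of the 8 with an adjusted p under 0.05, and it was higher in KPYYF cells. Over all genes tested, 0.305% were called higher at that threshold, 0.794% lower and 1.1% in either direction. Eya1 was read in 2 of 3 KPYYF libraries at levels above every KPF library, and Eya2 lay lower on average in KPYYF libraries, but neither passed the adjusted threshold. Six5, Eya3 and Dach1 overlapped between groups. By the rule of the study's methods, a p under 0.05 before adjustment and more than a 2-fold change, Six4 and Eya1 were higher and none of the 6 was lower, where 4.2% of all genes were higher, 9.2% lower and 13.4% changed in either direction. Six4 was also the only one of the 6 whose groups did not overlap in CPM. Among all genes, 3.92% were higher without overlap, 5.18% lower and 9.1% either. The median log2 fold change was -0.16 over the 6 genes and -0.07 over all genes, and the median size of the change, sign left aside, was 1.68 and 0.61. These sizes were not matched for level, and the SE of the log2 fold change was 1.75 for Eya1 and 1.81 for Dach1.

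**Figure D1:**
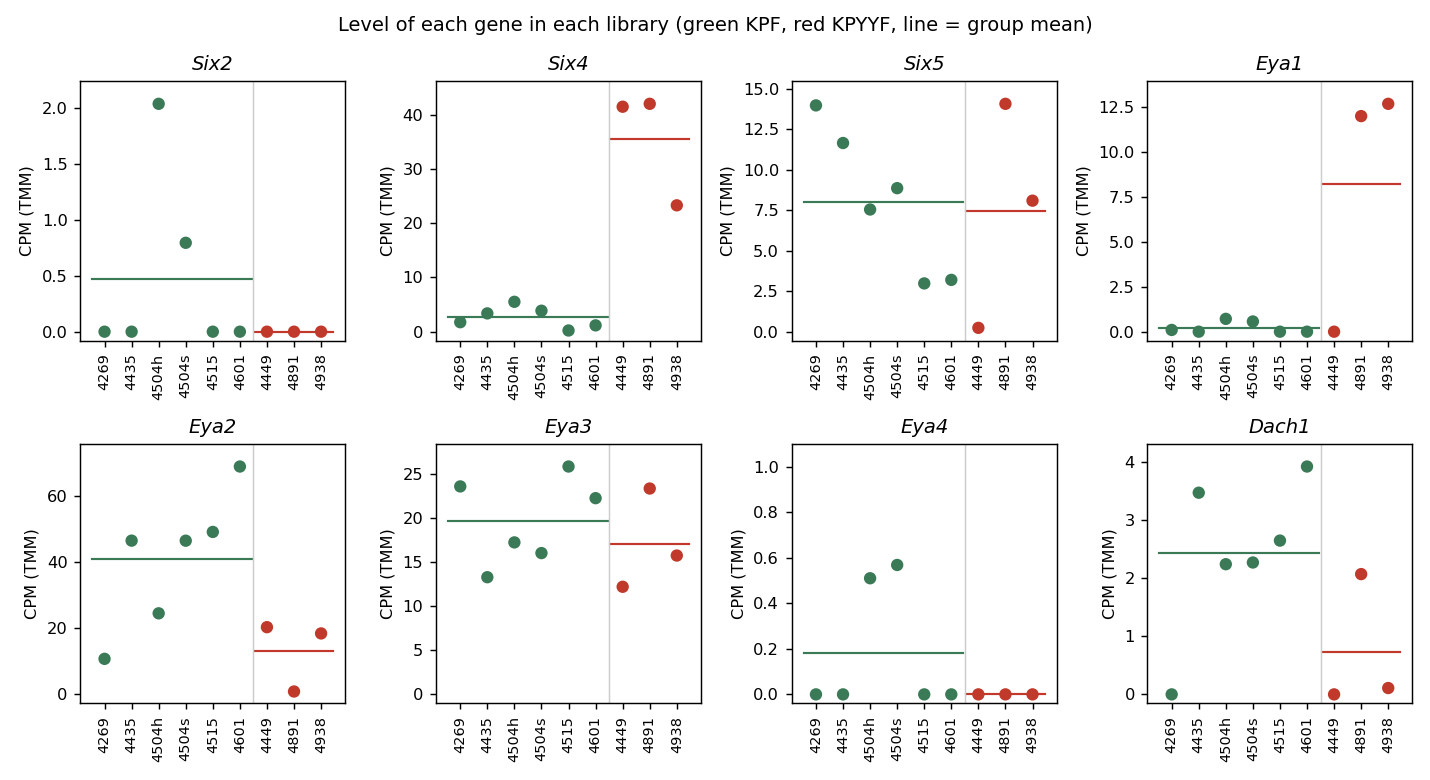
Level of each of the 8 genes, in TMM-scaled CPM on a linear axis with its own scale in each panel, in each of the 9 libraries (x axis, mouse number; green KPF, n = 6; red KPYYF, n = 3; line, group mean). Six4 is high in all 3 KPYYF libraries, Eya1 in 2 of them, and Six2 and Eya4 were read in KPF libraries 4504h and 4504s alone.

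Six4 (ENSMUSG00000034460) lies on chromosome 12 from 73099609 to 73113456, minus strand, in the GRCm38 annotation. It acts in muscle and kidney precursors. RefSeq (GRCm38.p6) gave promoter windows for 6 of the 8 genes, and 2 windows for Six4. Bases of Six4 are shown because it is the gene that was called. Its transcripts Six4-201 and Six4-202 start at 73113425 and 73113456. The first stretch ends where the outer of these starts begins. The second lies further in, in the annotated 5′ UTR of Six4-201 and at -97 from a start that RefSeq gives inside it, and its capitals mark TCAGGTT, the core of the MEF3 site, read on the opposite strand:
Six4 before both starts, chr12:73113457-73113675, minus strand: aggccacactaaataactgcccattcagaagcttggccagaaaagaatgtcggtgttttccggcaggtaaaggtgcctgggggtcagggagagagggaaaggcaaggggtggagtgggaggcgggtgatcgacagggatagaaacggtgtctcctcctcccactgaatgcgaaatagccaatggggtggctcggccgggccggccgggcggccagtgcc
Six4 around the MEF3 letters, chr12:73113326-73113352, minus strand: gcctgggggaAACCTGAtcggccagat
Searched on both strands in windows of 300 bases (250 before the start and 50 after), TCAGGTT was found in 4.07% of all 32851 promoters, in the inner Six4 window and in no other window of the 6 genes. The core bound by TEAD, the DNA-binding partner of Yap (GGAATG), was found in 14.7% of all promoters and, among the 6 genes, in the window of Dach1 (1 match, at -5). The AP-1 letters TGANTCA were found in 7.81% of all promoters and, among the 6 genes, in the window of Six5 (1 match, at -173). These are matches of letters, not sites, and 3′ end counts do not show which start was used.

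Six4 was read in every library. In the KPF libraries it ran from 0.221 CPM (2 counts, 4515) through a median of 2.56 to 5.50 CPM (54 counts, 4504h). In the KPYYF libraries it lay at 41.4 (350 counts, 4449), 42.0 (385 counts, 4891) and 23.3 CPM (213 counts, 4938). The lowest KPYYF library was above the highest KPF library, and the groups did not overlap. The means were 2.64 ± 1.95 CPM (SD, n = 6) and 35.6 ± 10.6 CPM (SD, n = 3). The log2 fold change was 3.74 ± 0.73 (SE), with an adjusted p of 0.0351 in edgeR's quasi-likelihood test. A two-sided exact permutation test of the group labels (84 arrangements) gave p = 0.0119, the smallest it can give. The study selected Six4 as a factor higher in these same libraries, so this call is not independent evidence.

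Six4 kept its direction under all alternatives, while its size varied and its call did not hold in all of them. Under 17 alternatives the log2 fold change ran from 3.07 to 4.43 and the adjusted p from 7.57e-05 to 0.0969, and it was under 0.05 in 10 of the 17. When single libraries were omitted, the log2 fold change ran from 3.52 to 4.09, with an unadjusted p under 0.05 in 9 of 9 fits and an adjusted p under 0.05 in 3 of 9. The adjusted p was 0.0582 without KPF library 4269, 0.0722 without 4435 and 0.0617 without 4504s. It was 0.0507 without KPYYF library 4449, 0.0969 without 4891 and 0.0718 without 4938. In the 6 libraries with at least 1000 Xist counts the log2 fold change was 3.07, with an adjusted p of 0.0683, and without both 4504h and 4504s it was 4.43, with an adjusted p of 0.0428.

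**Figure D2:**
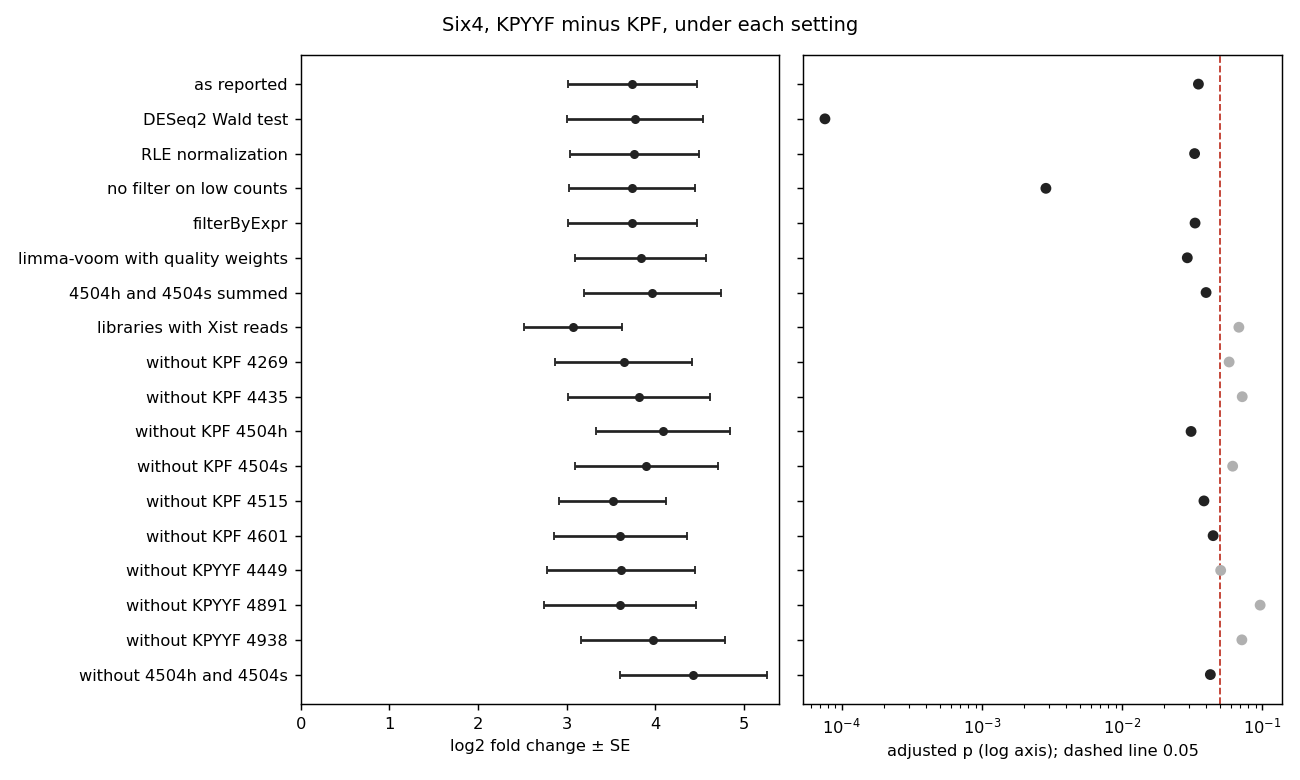
Six4 under each setting (rows): left, log2 fold change, KPYYF minus KPF, with its standard error; right, the adjusted p on a log axis, black where under 0.05 and grey where not, with the threshold as a dashed line. The fold change stays between 3.07 and 4.43, while the adjusted p lies on both sides of 0.05.

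Of 8 lists of cell type markers, the ductal epithelial one, of the lineage that PDAC cells resemble, did not overlap between the groups, and the other 7 did. The summed level of 7 ductal epithelial markers (Krt19, Krt8, Krt18, Krt7, Epcam, Cdh1 and Sox9, all of them read in every library) was 3458 to 8428 CPM in KPF and 601 to 1865 CPM in KPYYF libraries, without overlap, and Krt18 and Cdh1, 2 of the 7, passed the adjusted threshold, both lower. The 10 fibroblast markers summed to 409 to 5527 CPM in KPF and 1239 to 3315 CPM in KPYYF libraries, with 0 of the 10 past the threshold. By the unadjusted p and 2-fold rule, 2 of the 10 were higher in KPYYF libraries (Pdgfra and Thy1) and 1 was lower (Acta2). KPF libraries 4504h and 4504s, which had the highest Six4 levels of their group, also had its highest fibroblast sums, 4087 and 5527 CPM. KPF library 4515, with the lowest Six4 level of the group (0.221 CPM), had a fibroblast sum of 2344 CPM. KPYYF libraries 4449, 4891 and 4938 had fibroblast sums of 1404, 3315 and 1239 CPM, beside Six4 at 41.4, 42.0 and 23.3 CPM. The 10 skeletal muscle markers summed to 2.91 to 87.4 CPM in KPF libraries and to 3.79 (4449), 27.0 (4891) and 159 CPM (4938) in KPYYF libraries, with Myf5, Myh1 and Myh4 at 0 counts in all 9. Schwann and neural markers summed to 34.2 to 104 CPM in KPF and 8.18 to 38.4 CPM in KPYYF libraries. Of the 2 tested genes of that list, S100b, a glial calcium-binding protein gene, passed, with 15.7 to 90.6 CPM in KPF and 0.545 to 7.34 CPM in KPYYF libraries and a log2 fold change of -3.84 ± 0.77 (SE), at an adjusted p of 0.0357. Tubb3, a neuronal tubulin gene, had 0.93 ± 0.60 (SE), at an adjusted p of 0.490. Immune markers summed to 390 to 7218 CPM in KPF and 322 to 674 CPM in KPYYF libraries. Endothelial markers summed to 10.8 (4269) to 66.2 CPM in KPF and 10.4 to 14.8 CPM in KPYYF libraries, and overlapped only through KPF library 4269. Islet markers summed to 0.510 to 51.8 CPM in KPF and 2.62 to 11.1 CPM in KPYYF libraries. The 7 acinar markers were the most uneven between libraries of a group. They summed to 64.1 (4269) to 19149 CPM (4504s) in KPF libraries. In KPYYF libraries they summed to 5274 (4449), 85.8 (4891) and 69.9 CPM (4938). The part of these differences in the results on the 8 genes was not tested, and in such bulk libraries fewer cells of a type and less RNA per cell cannot be told apart.

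**Figure D3:**
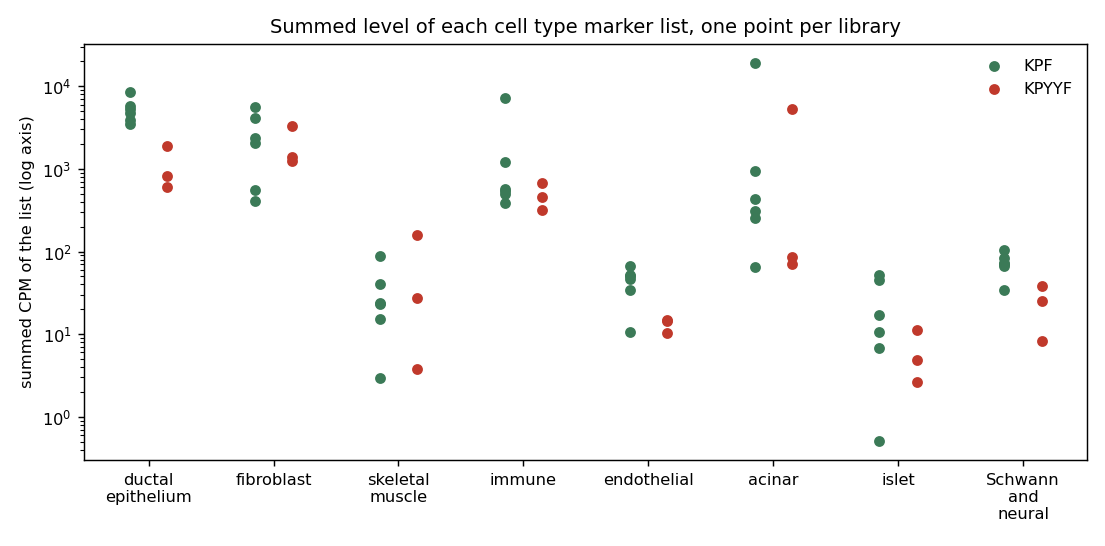
Summed level of 8 cell type marker lists, in CPM on a log axis, with 1 point for each library (green KPF, n = 6; red KPYYF, n = 3). The ductal list is lower in all 3 KPYYF libraries (601 to 1865) than in any KPF library (3458 to 8428), and the other lists overlap.

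Around Six4, genes of the annotation with bodies within 250 kb were looked up. The 3 tested genes reported here did not pass the adjusted threshold, and their distances are from start to start along the strand of Six4. Mnat1, which encodes an assembly factor of the CDK-activating kinase, starts at -10.3 kb and had a log2 fold change of 0.45 ± 0.40 (SE), at an adjusted p of 0.636. Trmt5, a tRNA methyltransferase gene at -173 kb, had 1.17 ± 0.98 (SE), at an adjusted p of 0.614. Slc38a6, a transporter gene starting beside Trmt5, had -0.02 ± 0.69 (SE), at an adjusted p of 0.993. Six6, a gene of the developing retina on chromosome 12, had 0 counts in all 9 libraries, as had Six3 on chromosome 17.

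Six2 (ENSMUSG00000024134), which maintains nephron progenitors in the embryonic kidney, was read in KPF libraries 4504h (20 counts, 2.04 CPM) and 4504s (7 counts, 0.795 CPM) and nowhere else. Its 0 counts in the 3 KPYYF libraries allow up to 3 counts in each, so a level like that of 4504s would lie above this limit (0.327 to 0.355 CPM) and a lower one could not be seen. Eya4 (ENSMUSG00000010461), known for its part in hearing and heart muscle, was read in the same 2 libraries alone, with 5 counts in each. No test was made for either gene in the main comparison.

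Six5 (ENSMUSG00000040841), which lies beside Dmpk at the myotonic dystrophy locus, showed no common direction. KPF libraries ran from 2.98 CPM (27 counts, 4515) through a median of 8.20 CPM to a highest level in 4269 (144 counts), just under that of KPYYF library 4891. KPYYF libraries lay at 0.237 CPM (2 counts, 4449), 14.1 CPM (129 counts, 4891) and 8.09 CPM (74 counts, 4938), so 1 was below every KPF library and 1 above. The log2 fold change was -0.11 ± 0.97 (SE), at an adjusted p of 0.976. It changed sign with single libraries, at 0.46 without KPYYF library 4449 and 0.12 without KPF library 4269. Within 250 kb of Six5, 20 genes were tested and 0 passed the adjusted threshold.

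**Figure D4:**
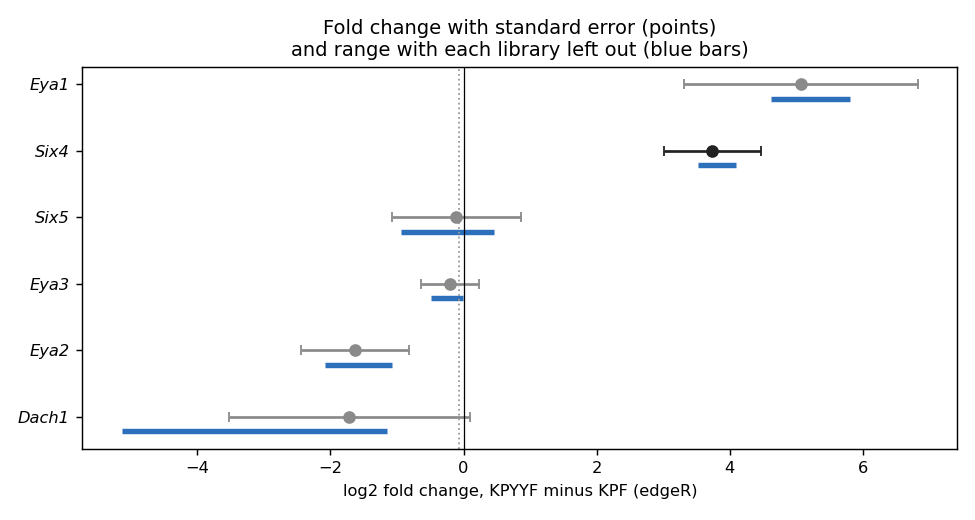
Log2 fold change, KPYYF minus KPF, of the 6 tested genes (points, with the standard error; black for an adjusted p under 0.05, grey otherwise) and the range of the value when each library was left out in turn (blue bars). Six4, at 3.74, has the narrower bar of the 2 genes on the right, Six5 crosses 0, and the dotted line marks the median of all genes tested, -0.07.

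Eya1 (ENSMUSG00000025932), the coactivator that works with SIX-family proteins in ear and kidney development, was all but unread in KPF cells. It had 7 counts in 4504h, 5 in 4504s, 1 in 4269 and 0 in the other 3 KPF libraries, at most 0.714 CPM. In KPYYF libraries it had 110 counts (12.0 CPM) in 4891, 116 (12.7 CPM) in 4938 and 0 in 4449. Both positive KPYYF libraries were far above every KPF library, and the third was at 0, which allows a level of up to 0.355 CPM. The log2 fold change was 5.07 ± 1.75 (SE, unadjusted p = 0.0125), at an adjusted p of 0.171, and the exact permutation p was 0.0833. Over its alternatives the adjusted p ran from 0.0517, with DESeq2, to 0.453, and it was 0.0819 without library 4449. The library without Eya1 had a Six4 level of 41.4 CPM.

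Eya2 (ENSMUSG00000017897), an EYA phosphatase often described in epithelial tumors, had the opposite sign. KPF libraries ran from 10.8 CPM (111 counts, 4269) through a median of 46.6 to 69.1 CPM (475 counts, 4601). KPYYF libraries lay at 20.4 (172 counts, 4449), 0.872 (8 counts, 4891) and 18.5 CPM (169 counts, 4938). Library 4891 was below every KPF library, while the other 2 were within the KPF range only because KPF library 4269 was at 10.8 CPM. The log2 fold change was -1.63 ± 0.81 (SE), at an adjusted p of 0.353, and the exact permutation p was 0.0476, not adjusted for the 9 genes with a count on which that test was run. Leaving out KPYYF library 4891, which had the fewest Eya2 counts, gave -1.08, and leaving out 4449 gave -2.09. The adjusted p was never under 0.05 in the alternatives (0.181 to 0.532).

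Eya3 (ENSMUSG00000028886), a broadly expressed EYA gene whose phosphatase has been tied to DNA repair, overlapped between the groups. KPF libraries ran from 13.3 through a median of 19.7 to 25.8 CPM, and KPYYF libraries lay at 12.2, 23.3 and 15.7 CPM. The log2 fold change was -0.20 ± 0.44 (SE), at an adjusted p of 0.879. Its standard error was the smallest of the 6 genes. Summed over all 4 EYA genes, KPF libraries held 34.4 to 91.3 CPM and KPYYF libraries 32.6 to 46.9 CPM, so the ranges overlapped.

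Dach1 (ENSMUSG00000055639), whose product can repress SIX-family targets, was low throughout. It ran from 0 (4269) through a median of 2.46 to 3.93 CPM (4601) in KPF libraries. KPYYF libraries had 0 counts (4449), 19 counts (2.07 CPM, 4891) and 1 count (0.109 CPM, 4938). The groups overlapped, with a log2 fold change of -1.72 ± 1.81 (SE), at an adjusted p of 0.710. The exact permutation p was 0.155. Library 4891 decides the size: without it the KPYYF group held 1 count of Dach1 and the fitted log2 fold change was -5.13, with an adjusted p of 0.376. Dach2 had 11 counts in KPF library 4269, 1 in 4504s, 10 in KPYYF library 4891 and 10 in 4938.

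The 3 KPYYF libraries differed in which of these genes they held. Library 4449 had Six4 but 0 counts of Eya1 and Dach1 and 2 of Six5. Library 4891 had Six4, Six5, Eya1 and Dach1 but 8 counts of Eya2. Library 4938 had Six4, Six5, Eya1 and Eya2 with 1 count of Dach1. Of the 8 genes, 4 had a count in library 4449, 6 in 4891 and 6 in 4938, against 5 in 4 of the KPF libraries and 8 in 4504h and 4504s. Summed over the 8 genes, KPF libraries held 50.2 to 99.6 CPM and KPYYF libraries 74.2 to 94.3 CPM.

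Of the other genes of the network, 1 was called lower at the adjusted threshold and 0 higher. Over all genes, 0.794% were lower and 0.305% higher. Among 9 PAX genes, 2 were tested and neither passed. Pax9 had a log2 fold change of -0.76 ± 0.83 (SE), at an adjusted p of 0.721, with 2.04 to 19.7 CPM in KPF and 3.08 to 8.09 CPM in KPYYF libraries. Pax5, a B cell factor, had -2.13 (adjusted p of 0.725), with 133 of its counts in KPF library 4601, the library with the highest immune marker sum. Pax4, Pax7 and Pax8 had no count in any library.

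Among 15 corepressors and SKI relatives, 13 were tested and 0 passed in either direction. Their median log2 fold change was -0.31, beside -0.07 over all genes. The highest was Tle1, a Groucho corepressor that SIX-family proteins can recruit, with 0.49 ± 0.55 (SE), at an adjusted p of 0.730. The lowest was its relative Tle4, with -1.36 ± 0.75 (SE), at an adjusted p of 0.400, at 2.65 to 69.0 CPM in KPF and from 8.31 CPM in KPYYF libraries. The groups overlapped for both.

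Among 18 described targets and progenitor partners, 13 were tested, 1 was called lower and 0 higher. The gene called was Slc12a2, which encodes a sodium-potassium-chloride cotransporter and has been described as a target of Six4. KPF libraries ran from 209 through a median of 409 to 851 CPM. KPYYF libraries lay at 118 (4449), 131 (4891) and 92.1 CPM (4938), all below every KPF library. The log2 fold change was -2.01 ± 0.41 (SE), at an adjusted p of 0.0357. The adjusted p was under 0.05 in 9 of 17 alternatives and in 3 of the 9 fits that left out 1 library, where it ran from 0.0178 to 0.145. It was 0.0752 without KPF library 4435, 0.0617 without 4504s and 0.0762 without 4515, and 0.0640, 0.0973 and 0.145 without KPYYF libraries 4449, 4891 and 4938. The median log2 fold change of the 13 genes was -0.77. By the p and 2-fold rule, 3 of the 13 were lower and 1 was higher, where 9.2% of all genes were lower and 4.2% higher.

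Myog, the muscle differentiation factor and a target with MEF3 sites in its promoter, is named here after its values were seen. It had 356 counts (38.9 CPM) in KPYYF library 4938, 1 in 4449, 2 in KPF library 4504s and 0 elsewhere. Its fitted log2 fold change of 7.99 (adjusted p = 0.0774) therefore rests on 1 library. Library 4938 was also the 1 KPYYF library with reads of Myod1 (77 counts) and the one with the most Acta1 (372 counts, against 130 in 4891 and 1 in 4449). Without KPYYF library 4938, Myog was not tested.

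Among 6 EYA phosphatase substrates and DNA damage partners, 5 were tested and 0 passed. By the p and 2-fold rule, 1 of the 5 was higher and 0 were lower, where 4.2% of all genes were higher and 9.2% lower. H2afx, the histone variant whose tyrosine mark EYA proteins can remove, was highest at 1.25 ± 0.41 (SE), at an adjusted p of 0.149. It ran from 7.17 through a median of 22.1 to 24.0 CPM in KPF libraries and lay at 35.6, 50.8 and 56.1 CPM in KPYYF libraries, without overlap. Apbb1, an adaptor for the same mark, was lowest at -1.01 ± 1.37 (SE), at an adjusted p of 0.784. Its groups overlapped.

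**Figure D5:**
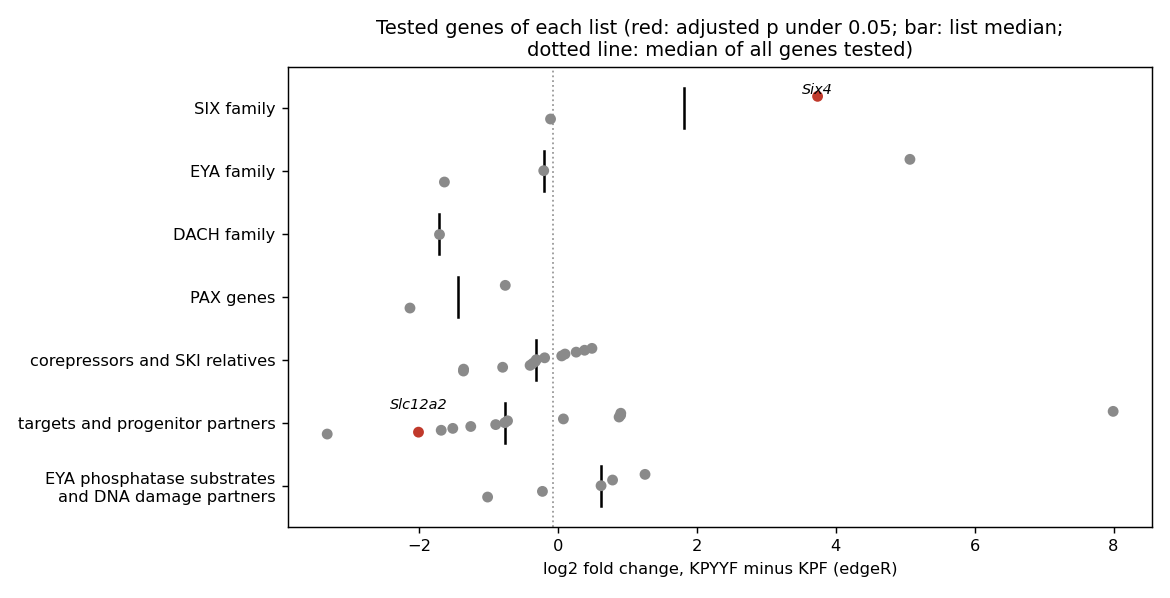
Log2 fold change, KPYYF minus KPF, of each tested gene of 7 lists of the network (points; red for an adjusted p under 0.05, grey otherwise; black bar, median of the list; dotted line, median of all genes tested). Six4, at 3.74, and Slc12a2, at -2.01, are the only red points, and the point at 7.99 is Myog.

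The genes whose levels followed Six4 most closely were picked by Pearson correlation of log2 CPM over the 9 libraries. The candidates were 10473 tested genes with a mean of at least 5 CPM and a symbol other than a predicted or clone name. The 5 closest were Atad2 (r = 0.978), Nop2 (0.965), Twist2 (0.964), Plekhg2 (0.963) and Smarcc1 (0.959). The 9 points share the split into 6 KPF and 3 KPYYF libraries, so any gene with a clean difference ranks high, and no p is given. All 5 lay higher in each KPYYF library than in any KPF library. Atad2, a bromodomain ATPase gene, had 18.1 to 45.6 CPM in KPF and 102 to 127 CPM in KPYYF libraries, with a log2 fold change of 1.78 ± 0.31 (SE), at an adjusted p of 0.0229. Twist2, a mesenchymal bHLH factor that the study chose on these libraries together with Six4, had 0.110 to 8.26 CPM and 93.2 to 159 CPM, with a log2 fold change of 5.57 ± 0.95 (SE), at an adjusted p of 0.0277. Nop2 (1.29, adjusted p = 0.0933), Plekhg2 (1.11, adjusted p = 0.149) and Smarcc1 (0.69, adjusted p = 0.182) did not pass.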

How the data were processed

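Total RNA of FACS-sorted PDAC cells was made into 3′ end libraries with the Lexogen QuantSeq Forward kit, per the labels. The authors deposited 1 file of raw counts per gene and library, and the submitters' processing notes name STAR, HTSeq and mm10, with versions and annotation not given in the sources used here. The study's methods describe a BeadChip and DESeq2, but the files hold whole counts. Genes took 37.3 to 42.0% of the reads listed in a file. Symbols and positions came from GENCODE (GRCm38), and promoters from RefSeq (GRCm38.p6). The 14105 genes that reached 100 counts in total were compared with edgeR 4.0.16's quasi-likelihood test (TMM, robust, no covariates, R 4.3.3), with Benjamini-Hochberg adjusted p-values across those genes and a threshold of 0.05. The common coefficient of variation was 0.83. Each SE of an edgeR log2 fold change was back-calculated as its absolute value divided by the square root of the test's F statistic. Exact permutation tests were two-sided, on log2 CPM with a prior count of 2. No columns of other samples were met (0 left out).

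The alternatives were DESeq2 1.42.0 (Wald test), RLE factors, no filter on low counts, filterByExpr, limma-voom (limma 3.58.1) with quality weights, libraries 4504h and 4504s summed, libraries with at least 1000 Xist reads, each library left out and a prior count of 0.5. Leaving out both 4504h and 4504s was added after seeing the data. The scripts were tested on simulated data. The 8 genes, the lists and the tests were chosen with earlier results of these data known. Genes are named if they belong to the families of the 8 genes, passed in a list of the network (otherwise its highest and lowest gene), passed within 250 kb of one of the 8 genes (none reported here did), were among the 5 most like Six4, or are Yap1. Myog, Myod1, Acta1, single markers and the 3 tested genes near Six4 were added. Some genes and alleles are not reported here. Figures were drawn with matplotlib 3.10.9.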

Additional observations from a re-analysis of the deposited data

Results flagged for a closer look

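In KPF library 4269, Dach2 stood apart from the other 5 KPF libraries at 1.07 CPM (11 counts), with a gap to the next library of 0.894 of the group's range. KPF library 4269 also had the lowest Eya2 level of its group and 0 counts of Dach1. Such a gap was looked for in the 6 KPF libraries for 9 genes of the families, and chance flags about 1 in 20 groups of normally distributed values. Dach2 had a count in only 2 of the 6 KPF libraries, so that rate does not hold for it. Beyond these values the cause was not tested.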

How the results depend on the processing

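Six4, Eya1, Eya2 and Dach1 kept their direction under every alternative in which they were tested (Eya1 was not with filterByExpr, nor Dach1 in the libraries with Xist reads). Eya3 changed sign in the libraries with Xist reads (log2 fold change 0.16), and Six5 ranged from -0.94 to 0.46 with 1 library left out (0.12 without KPF library 4269, 0.030 without 4435 and 0.46 without KPYYF library 4449). Of the 8 genes, the number called higher at the adjusted threshold was 1 (Six4) and fell to 0 in the libraries with Xist reads, with 0 to 1 when 1 library was left out. By the p and 2-fold rule, 2 were higher, but 1 with filterByExpr, which removed Eya1, and 1 in the libraries with Xist reads. By that rule 0 were lower, but 1 (Eya2) with DESeq2 and with limma-voom, and 0 to 1 with 1 library left out (Eya2 without KPF library 4269). For the other genes of the network, 0 were called higher, but 1 (Myog) without a filter on low counts and 0 to 1 with 1 library left out. There 1 was called lower (Slc12a2), but 2 with DESeq2 (Slc12a2 and Wt1), 0 in the libraries with Xist reads and 0 without 4504h and 4504s. With 1 library left out it was 0 to 1. The gene called was Slc12a2 without KPF library 4269, 4504h or 4601, and Skil without KPYYF library 4449.

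Over all genes, 43 were called higher and 112 lower, but 269 and 928 with DESeq2, 88 and 219 with no filter, 43 and 44 with limma-voom, 25 and 86 with 4504h and 4504s summed, and 6 and 31 in the libraries with Xist reads. With 1 library left out, 6 to 75 were higher and 13 to 198 lower. A prior count of 0.5 changed no sign. With it the exact permutation p was 0.131 for Eya1 and 0.274 for Dach1, against 0.0833 and 0.155 with a prior count of 2. It stayed at 0.0119 for Six4 and 0.0476 for Eya2. Depth limits Six2, Eya4, Dach1 and Dach2, with at most 34 counts in a library. No paired analysis was possible because the replicate numbers do not pair the groups, whose libraries carry different mouse numbers.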
